A study of Mus musculus with 26 samples.

Results

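The comparison described here sets sensory ganglia of the lumbar spine (dorsal root ganglia, DRG, which hold the cell bodies of sensory neurons) of control mice, taken 1 day after sciatic nerve crush, against those of control mice left uninjured. Its members are the 3 libraries labelled as injured control ganglia and the 3 labelled as uninjured (naive) control ganglia, 6 of the 26 RNA sequencing libraries of the study. The study was built around mice in which the aryl hydrocarbon receptor gene, *Ahr*, could be deleted in neurons, and the controls show what a crush does to ganglia without that deletion.

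All 6 mice lacked a Cre recombinase but carried floxed *Ahr*: replicates 1 and 2 of each group are labelled Ahr fl/+ and replicate 3 of each group Ahr fl/fl. Tamoxifen, 100 mg/kg on each of 5 days, was given to all of them when they were 28 weeks old, although none could recombine, and the ganglia (lumbar levels 4 to 6, 1 sample per mouse) were taken 5 weeks later, or 1 day after a crush made at that time. Dissection fell between 2 and 4 hours after lights on. The strain and the side of the ganglia taken after the crush are not given in the labels. The naive mice had no operation, so the crush libraries differ from them by the surgery as well as by the nerve lesion. Control ganglia after sham surgery (2 male mice, labelled Ahr f/+ and Ahr fl/fl, 1 day after the operation, the operated side against the other side, with no tamoxifen stated) and the crush and naive ganglia of conditional knockout mice (cKO, Ahr f/f with a tamoxifen-inducible Cre under the *Thy1* promoter, 3 mice each, with the same tamoxifen at the same age) are used below as further readings of the same genes.

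A sensory neuron in the DRG sends an axon along the sciatic nerve, and damage to that axon is reported back to the cell body by calcium, by kinases that travel along the axon and by the loss of factors supplied by the target. The cell body answers with transcription factors, led by ATF3, c-Jun, SOX11 and STAT3, that switch on genes for axon growth and injury neuropeptides while genes of normal transmission are turned down. Satellite glia around the cell bodies, resident macrophages and Schwann cells in the ganglion answer as well, and bulk RNA mixes all of them, so fewer cells of a type and less RNA per cell cannot be told apart.

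The libraries held 20930126 to 23491032 counts. Crush replicate 3 is labelled male but carried 338 counts of the female transcript *Xist* and 2 counts of Y-linked genes, so all 6 libraries were female by their transcripts and 1 went against its label. Among the cKO libraries used below, crush replicate 2 is labelled female but carried 0 counts of *Xist* and 1641 Y-linked counts, the opposite mismatch within the same surgery group. *Thy1*, whose promoter drives the Cre, was at 791 CPM (counts scaled to the size of the library) in crush control replicate 3. In crush cKO replicate 2 it was at 1458 CPM. It ran from 707 to 807 CPM over the naive and crush control libraries and from 1241 to 1458 CPM over those labelled cKO. Whether these 2 libraries were exchanged was not tested. Naive replicate 1 stood apart in 2 of the marker lists: its neutrophil and monocyte markers summed to 792 CPM against 134 and 211 in the other naive libraries, and its muscle and fat markers to 72.1 CPM against 8.58 and 16.6. The counts over all genes after crush are given with and without these libraries. Where a named gene is said to have lost its call without a library, that library is an example, and leaving out others could end the call too. Markers of neurons summed to 2580 to 2900 CPM in naive and 2750 to 2940 CPM in crush libraries, and those of satellite glia to 2320 to 2420 and 2520 to 2750 CPM, so the defining markers of the labelled tissue were present.

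Crush changed the level of 4601 of 21261 genes tested (21.6%; adjusted p under 0.05 in edgeR's quasi-likelihood test), 2744 higher (12.9%) and 1857 lower (8.73%). Without crush replicate 3 the counts were 2360 and 1597, with 2289 and 1427 of the same genes, and without naive replicate 1 they were 2302 and 1642, with 2165 and 1408 of the same genes. Leaving out crush replicate 1 gave 1976 higher and 1181 lower, and leaving out crush replicate 2 gave 1930 and 1186. Most changes were small: the median called gene that rose was 1.36 times its naive level and the median one that fell was at 0.736 of it. Large changes went up. At least 2-fold, 480 genes (2.26%) were higher and 149 (0.701%) lower, and at least 4-fold 165 (0.776%) were higher and 12 (0.0564%) lower. Over all genes tested the median log2 fold change was -0.02, and 8107 genes (38.1%) had naive and crush groups without overlap.

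**Figure D1:**
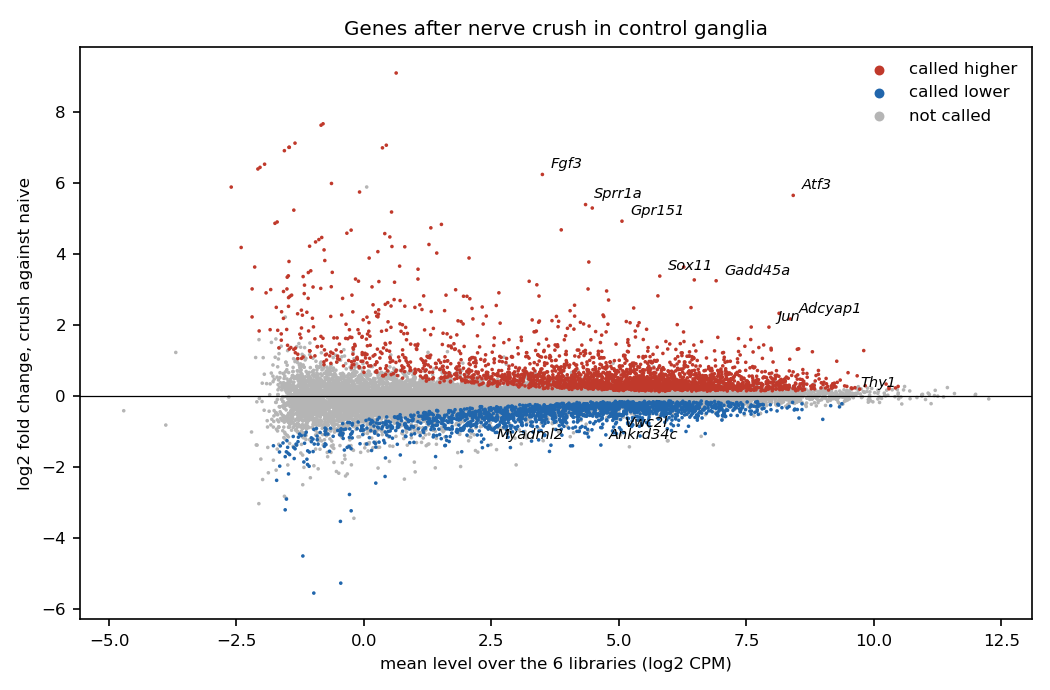
Each point is a gene, placed by its mean level over the 6 control libraries (log2 CPM, horizontal axis) and its log2 fold change after crush (vertical axis). Red points were called higher (2744 genes), blue points lower (1857) and grey points were not called. Changes above 4-fold lie almost all on the upper side, with *Fgf3* at 6.23 and *Atf3* at 5.64.

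*Atf3*, a stress-induced transcription factor widely used to mark axotomised neurons, had the smallest p of all genes (chromosome 1, 191170296 to 191218039 in GRCm38, minus strand). It stood at 14.4, 13.2 and 12.6 CPM in the naive libraries and at 693, 731 and 589 CPM after crush. The groups were far apart and each was tight, a rise (log2 fold change 5.64, SE 0.19, adjusted p 3.47e-08). Next by p came *Gadd45a*, a DNA damage and growth arrest gene, with 24.1, 23.6 and 21.1 CPM in naive and 240, 221 and 191 CPM in crush ganglia (9.46-fold; reads of an overlapping gene came to 14.7% of its count). *Steap1*, a membrane protein of the cell surface, went from 2.34, 2.21 and 1.90 to 21.6, 18 and 16.8 CPM (8.75-fold). *Sox11*, a developmental factor re-expressed after axotomy, went from 8.63, 11.3 and 9.50 to 104, 112 and 89.2 CPM (10.4-fold). In all 4 genes crush replicate 3 was the lowest crush library or equal to the lowest, and none of its values came near the naive range.

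*Bdnf*, the neurotrophin that sensory neurons release at their central endings, was at 59.6, 59.3 and 58.9 CPM in naive and 207, 176 and 176 CPM in crush ganglia (3.14-fold, SE of the log2 value 0.077, adjusted p 1.76e-07). *Fst*, which encodes the activin antagonist follistatin, rose 8.06-fold from 4.49, 4.06 and 5.33 to 38.2, 39.4 and 34.8 CPM. *Adcyap1*, the neuropeptide PACAP, rose 4.49-fold, from 114, 127 and 118 to 558, 562 and 494 CPM. *Nkain1* (3.87-fold), *Pkib* (2.90-fold), *Rnf122* (4.17-fold) and *Smim3* (7.05-fold) completed the 12 genes of smallest p, together with *Jun*, which follows below. That the groups do not overlap was a condition for naming them.

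Among genes reaching at least 5 CPM, clone names left aside, the widest folds were those of *Fgf3*, *Atf3*, *Sprr1a*, *Tmem88b*, *Gpr151* and *Cckbr*, all but *Atf3* at low levels in naive ganglia. *Fgf3*, a fibroblast growth factor, was at 0.360, 0.135 and 0.372 CPM before and 20.2, 27.7 and 19.0 CPM after crush, a 75.2-fold difference (log2 fold change 6.23, SE 0.43, adjusted p 2.73e-06). *Sprr1a*, a cornified envelope protein known to promote neurite outgrowth, went from 0.584, 0.768 and 1.45 to 39.7, 43.8 and 35.7 CPM (41.8-fold). *Tmem88b* rose 39.1-fold, from 0.944, 0.948 and 1.41 to 44.3, 50 and 36.1 CPM. *Gpr151*, an orphan receptor of injured nociceptors, rose 30.2-fold and *Cckbr*, the receptor for cholecystokinin and gastrin, 25.5-fold, the latter from 1.35, 1.22 and 0.744 to 25.6, 37.2 and 21.6 CPM.

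Of 7 elements counted in promoters, the promoters of these genes were searched for the 2 bound by factors of the ATF3 and c-Jun family, because members that move together may share them: the AP-1 element TGANTCA, which reads the same on both strands, and the cAMP response element TGACGTCA, also a palindrome and without overlap with the first. RefSeq promoters (GRCm38.p6, from 250 bases before to 50 bases after each annotated start) were found for 13387 of the 21198 tested genes with a symbol, 17002 promoters in all. Of the 17 genes named so far as rising, 13 had a promoter, and 3 of them held the letters TGANTCA in at least 1 promoter. Over all promoters taken singly the share was 5.82%. The free middle base was A in *Bdnf* and *Tmem88b* and G in *Sprr1a*. The matched promoters are printed 5′ to 3′ on the gene's strand, with the element in capitals. *Bdnf* has 7 promoters in the table and 1 with a match (chr2:109676782-109677081, plus strand, first base at -152 from the start), *Tmem88b* has 1 (chr4:155785825-155786124, minus strand, at -231), and *Sprr1a* has 1 with 2 matches (chr3:92485832-92486131, minus strand, at -146 and -116).
Bdnf: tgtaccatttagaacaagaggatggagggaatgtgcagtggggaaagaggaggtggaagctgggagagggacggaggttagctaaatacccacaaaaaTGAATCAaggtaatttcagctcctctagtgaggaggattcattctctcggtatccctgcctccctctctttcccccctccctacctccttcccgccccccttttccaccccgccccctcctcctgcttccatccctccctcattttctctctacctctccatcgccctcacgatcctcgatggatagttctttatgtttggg
Tmem88b: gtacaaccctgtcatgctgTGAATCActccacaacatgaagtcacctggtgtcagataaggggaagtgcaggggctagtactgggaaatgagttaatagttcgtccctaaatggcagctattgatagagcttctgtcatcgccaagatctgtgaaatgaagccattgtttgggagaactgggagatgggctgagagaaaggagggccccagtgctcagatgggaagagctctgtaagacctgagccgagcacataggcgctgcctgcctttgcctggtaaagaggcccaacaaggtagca
Sprr1a: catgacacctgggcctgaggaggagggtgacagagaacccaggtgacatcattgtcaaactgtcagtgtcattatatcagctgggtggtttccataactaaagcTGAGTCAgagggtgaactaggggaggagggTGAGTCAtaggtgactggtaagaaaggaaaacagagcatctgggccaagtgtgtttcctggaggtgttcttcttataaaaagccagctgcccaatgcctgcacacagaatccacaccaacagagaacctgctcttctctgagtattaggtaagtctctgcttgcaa

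The AP-1 element was in 13.3% of the 390 promoters of genes at least 2-fold higher after crush, in 5.66% of the 106 promoters of genes at least 2-fold lower and in 5.82% of all 17002 promoters of the same length. The STAT element TTCNNNGAA was in 11.0%, 5.66% and 7.03% of them. In the same order the AhR core GCGTG was in 35.1%, 29.2% and 45.9%, the E-box CACGTG in 6.15%, 7.55% and 9.02%, the C/EBP-ATF composite TGATGNAA in 4.1%, 4.72% and 2.45% and the NF-Y element CCAAT in 35.9%, 38.7% and 37.1%. Over the 2459 promoters of all genes called higher the AP-1 share was 6.59% and the STAT share 8.05%. The cAMP response element was in 1.54% of the promoters of genes at least 2-fold higher (6 promoters), in 3.01% of those of all genes called higher and in 2.66% of all. These shares describe letters in a window of 300 bases, and no binding was measured. The windows of *Atf3*, *Gadd45a*, *Steap1*, *Sox11* and *Jun* held neither the AP-1 nor the cAMP response letters.

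Transcription factors tied to regeneration moved almost as a block: of 22 tested, 19 rose (86.4%, beside 12.9% of all genes) and 0 fell, with a median log2 fold change of 0.93. After *Atf3* and *Sox11* came *Jun*, the core AP-1 subunit, at 104, 103 and 99.0 CPM in naive and 403, 414 and 354 CPM in crush ganglia (log2 fold change 1.94, SE 0.097, adjusted p 3.13e-07; overlapping genes held 16.3% of its counts). *Bhlhe41*, a transcriptional repressor, went from 48.7, 48.0 and 47.0 to 139, 134 and 115 CPM (1.43, SE 0.082, adjusted p 7.92e-07). *Smad1*, which carries bone morphogenetic protein signals, went from 44.6, 49.7 and 47.0 to 105, 111 and 95.4 CPM (1.14, SE 0.085, adjusted p 4.48e-06), and *Crem*, a cAMP-responsive factor, rose by 1.11. The 3 members not called were *Klf4* and *Klf9*, both known to limit axon growth, and *Rarb*.

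Immediate early genes, which peak within hours of a stimulus, gave a mixed reading at 1 day: 7 of 16 rose (43.8%, beside 12.9% of all genes) and 0 fell, with a median of 0.24. *Fosl2*, a Fos family partner of c-Jun, rose from 24.6, 29.2 and 36.0 to 80.4, 79.1 and 73.7 CPM (log2 fold change 1.38, SE 0.15, adjusted p 7.25e-05). *Fos* itself was at 16.7, 6.23 and 5.37 CPM in naive and 10.7, 9.15 and 10.8 CPM in crush ganglia, and *Egr1* at 40.9, 16.5 and 19.9 against 20.1, 20.4 and 16 CPM. In both the high library was naive replicate 1, the groups overlapped and neither gene was called (adjusted p 0.839 and 0.297). Without that library the groups of *Fos* no longer overlapped and it was called higher (log2 fold change 0.82, adjusted p 0.00423), while *Egr1* was at 0.05 (adjusted p 0.892).

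Growth effectors downstream of these factors rose in 18 of 25 cases (72%, beside 12.9% of all genes), 0 fell, and the median was 0.79. *Lmo7*, an actin-associated protein of cell junctions, went from 9.03, 8.31 and 10 to 42.6, 48.7 and 37.7 CPM (log2 fold change 2.24, SE 0.13, adjusted p 8.75e-07). *Sema6a*, a transmembrane semaphorin, went from 14.5, 17.4 and 18.4 to 144, 199.5 and 141 CPM (3.27, SE 0.19). *Flrt3*, a leucine-rich repeat protein of neurite growth, rose by 3.63, but the counts of genes overlapping it came to 214% of its count, so its level is uncertain. *Cd44*, the hyaluronan receptor, rose from 256, 272 and 262 to 668, 647 and 559 CPM, and *Itga7*, a laminin receptor subunit, from 71.4, 84.2 and 84.0 to 311, 344 and 265 CPM. By contrast *Gap43*, the growth cone protein, named here after its value was seen, rose by 0.48, from 208, 242 and 206 to 297, 315 and 301 CPM, and the neuronal tubulin gene *Tubb3* was not called.

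Neuropeptides known to appear in injured sensory neurons showed the highest median of the 39 pathway and family lists, 1.91, with 7 of 10 tested members higher (70%, beside 12.9% of all genes) and 0 lower. Beside *Bdnf* and *Adcyap1*, *Gal* (galanin) went from 6.74, 6.10 and 5.45 to 30.6, 33.3 and 23.0 CPM (log2 fold change 2.25, SE 0.20, adjusted p 1.67e-05). *Npy*, neuropeptide Y, went from 0.764, 0.271 and 0.537 to 7.59, 8.92 and 6.95 CPM (3.88, SE 0.42, adjusted p 6.56e-05). *Nts*, neurotensin, rose from 11.1, 10.8 and 9.71 to 25.3, 28.3 and 23.9 CPM, and *Crh*, corticotropin-releasing hormone, stayed under 2 CPM but rose by 2.84. *Vip*, an injury peptide at later times, had too few counts to be tested. The peptides that nociceptors make at rest did not follow: *Calca* (CGRP) was at 725, 719 and 669 against 782, 743 and 720 CPM (adjusted p 0.281) and *Tac1* (substance P) at 148, 158 and 159 against 181, 150 and 157 CPM (adjusted p 0.564). *Nppb*, the itch peptide, rose by 0.72. *Sst*, somatostatin, fell by 0.59, a call lost in several alternatives (adjusted p 0.14 without naive replicate 1 and 0.0712 without crush replicate 3).

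**Figure D2:**
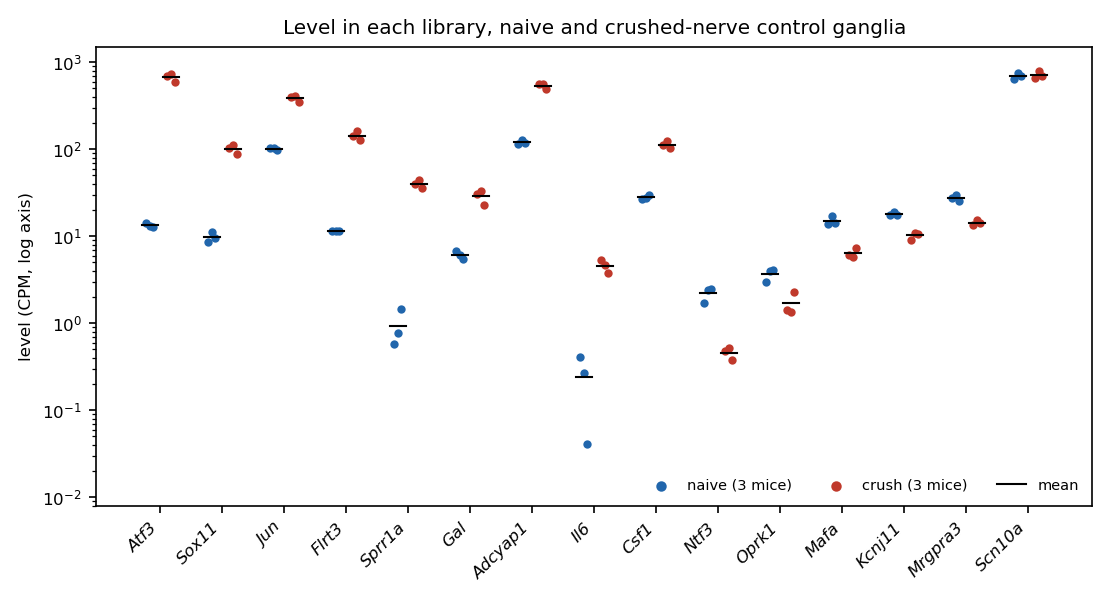
Level of 15 genes in each of the 6 control libraries (CPM, log axis), with naive libraries in blue, crush libraries in red and the mean of each group as a black line. The crush libraries of *Atf3*, *Sox11*, *Gal* and *Csf1* lie above every naive library, those of *Ntf3*, *Mafa*, *Kcnj11* and *Mrgpra3* lie below, and those of *Scn10a* overlap them.

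The receptors and factors that give sensory neurons their identity moved down more often than up. Mas-related receptors, which mark itch and touch neurons, fell in 5 of 9 cases (55.6%, beside 8.73% of all genes) with 0 higher (median -0.44). *Mrgpra3*, the chloroquine receptor of itch neurons, fell from 27.4, 29.4 and 25.5 to 13.4, 15.5 and 14.2 CPM (log2 fold change -0.94, SE 0.097, adjusted p 4.74e-05). *Mrgprd*, which marks non-peptidergic nociceptors, stayed in the same range, at 248, 267 and 254 against 231, 266 and 241 CPM (adjusted p 0.665). Among transcription factors of neuronal subtypes, 9 of 19 fell (47.4%) and 1 rose (median -0.25). *Mafa*, a factor of rapidly adapting mechanoreceptors, fell from 14, 17.1 and 14.1 to 6.16, 5.79 and 7.28 CPM (-1.23, SE 0.14, adjusted p 7.25e-05), and *Runx3*, a proprioceptor factor, from 16.3, 23.1 and 19.9 to 10.8, 10.3 and 13.9 CPM (-0.76, SE 0.13). *Shox2*, of mechanoreceptors, fell by 0.89, with overlapping genes at 254% of its counts. *Pou4f1*, common to all sensory neurons, was at 233, 289 and 260 against 256, 262 and 253 CPM and was not called, and *Etv5* was the 1 factor that rose, by 0.76.

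Of 66 potassium channels, which hold neurons quiet, 23 fell (34.8%, beside 8.73% of all genes) and 6 rose (9.09%, beside 12.9%), with a median of -0.25. *Kcnj11*, the pore of ATP-sensitive channels, fell from 17.7, 19.1 and 17.8 to 9.17, 10.8 and 10.7 CPM (log2 fold change -0.83, SE 0.077, adjusted p 2.11e-05). *Kcnj3*, a G protein-gated channel, fell from 40.04, 49.5 and 47.4 to 18.5, 22.7 and 26.1 CPM (-1.03, SE 0.13), and its partner *Kcnj9* by 0.91. *Kcns1*, a modulatory subunit linked to pain sensitivity, fell from 79.5, 101 and 86.6 to 49, 50.8 and 66.7 CPM (-0.68, SE 0.11, adjusted p 0.00108). The exception by size was *Kcnk16*, a two-pore channel, which rose from 0.944, 1.13 and 0.826 to 6.11, 8.54 and 5.67 CPM (2.81, SE 0.37). The other 5 that rose did so by 0.32 to 0.43, and each lost its call in 1 or more fits without a library, with the lowest value for *Kcnh6*, 0.23 (adjusted p 0.21) without crush replicate 2 (adjusted p 0.0967 without crush replicate 3 and 0.154 without naive replicate 1).

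Receptors that damp transmission fell as well: 4 of 6 opioid and cannabinoid receptors (66.7%, beside 8.73% of all genes), with 0 higher and a median of -0.69. *Oprl1*, the nociceptin receptor, fell from 33.8, 40.6 and 35.0 to 15.6, 15.4 and 20.4 CPM (log2 fold change -1.09, SE 0.13, adjusted p 0.000108). *Oprd1*, the delta receptor, fell from 28.4, 34.6 and 34.3 to 14.5, 18.2 and 20 CPM (-0.89, SE 0.13), and *Oprk1*, the kappa receptor, from 2.97, 3.97 and 4.09 to 1.43, 1.35 and 2.32 CPM (-1.11, SE 0.24, adjusted p 0.00605). The mu receptor gene *Oprm1* overlapped between the groups, at 126, 177 and 171 against 140, 164 and 153 CPM (adjusted p 0.834). *Cnr1*, the cannabinoid receptor of neurons, fell by 0.47, but this was lost without crush replicate 1 (-0.35, adjusted p 0.11) and in other fits.

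Voltage-gated sodium and calcium channels moved little. Beside 12.9% higher and 8.73% lower over all genes, 2 of 14 sodium channel genes (14.3%) fell, among them *Scn1a* (140, 179 and 169 against 96.3, 106 and 125 CPM, log2 fold change -0.58, SE 0.12), and 0 rose. The nociceptor channels *Scn10a* (651, 747 and 698 against 659, 789 and 695 CPM) and *Scn9a* overlapped between groups and were not called. Of 17 calcium channel genes 3 rose (17.6%) and 1 fell (5.88%), led by *Cacna2d1*, the subunit bound by gabapentin, at 153, 189 and 188 CPM before and 348, 374 and 308 CPM after crush (0.96, SE 0.10, adjusted p 5.46e-05). Of 20 sensory transduction channels 5 rose (25%) and 3 fell (15%). *Trpv2* went up from 61.3, 67.2 and 61.4 to 101, 106 and 99.9 CPM (0.69) and *Trpa1*, the irritant receptor, from 49.5, 55.8 and 53.3 to 74.9, 72.5 and 66.5 CPM (0.43), while *Trpc5*, a cold-sensitive channel, fell by 0.93. *Trpv1*, the capsaicin receptor, rose by 0.30, a call lost without crush replicate 1 (0.26, adjusted p 0.066) or 2.

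The signals that neurons send and receive changed on both sides. Among 14 genes of the gp130 cytokine family 4 rose (28.6%, beside 12.9% of all genes), above all *Il6*, at 0.404, 0.271 and 0.0413 CPM in naive and 5.40, 4.62 and 3.78 CPM in crush ganglia (log2 fold change 4.26, SE 0.37, adjusted p 1.31e-05), and the oncostatin M receptor *Osmr*, from 50, 49.7 and 50 to 79.4, 86.0 and 77.5 CPM. *Lif* and *Cntf*, the classic injury cytokines of nerve, were not called (adjusted p 0.910 and 0.791), *Lif* at 0.467 to 1.48 CPM over the 6 libraries. Downstream, 12 of 22 genes of the Jak, Stat and Socs families (54.5%) rose and 0 fell (median 0.36). *Socs3*, the feedback inhibitor of this pathway, went from 22.7, 12.2 and 13.9 to 79.8, 60.5 and 63.5 CPM (2.06, SE 0.19, adjusted p 1.90e-05). *Socs2* rose by 0.88 and the kinase gene *Pim3* by 1.08.

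*Csf1*, through which injured sensory neurons address microglia and macrophages, went from 26.9, 27.5 and 30.0 to 112, 125 and 104 CPM (log2 fold change 2.01, SE 0.17, adjusted p 1.04e-05). *Ntf3*, which encodes the neurotrophin of proprioceptors, fell from 1.71, 2.44 and 2.48 to 0.478, 0.514 and 0.378 CPM (-2.26, SE 0.26, adjusted p 8.63e-05). On the receptor side, 4 of 10 neurotrophic factor receptors rose (40%, beside 12.9% of all genes) and 1 fell (10%, beside 8.73%). *Gfra1*, the GDNF receptor, went from 189, 225 and 215 to 519, 561 and 501 CPM (1.33, SE 0.12; overlapping genes held 12.9% of its counts) and its signalling partner *Ret* from 604, 720 and 648 to 960, 1039 and 927 CPM (0.57, SE 0.077), while the neurotrophin receptors *Ntrk2* and *Ntrk3* were not called. *Gfra4* fell by 0.38, which was lost without naive replicate 2 (-0.26, adjusted p 0.051).

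Effectors of the integrated stress response, which ATF4 drives when translation is slowed, rose in 15 of 24 cases (62.5%, beside 12.9% of all genes) with 0 lower (median 0.45). *Chac1*, which degrades glutathione, went from 6.79, 7.81 and 7.23 to 29.7, 33.7 and 28.6 CPM (log2 fold change 2.07, SE 0.17, adjusted p 1.11e-05), *Trib3* rose by 1.36 and *Atf4* itself from 213, 190 and 194 to 328, 317 and 290 CPM (0.65, SE 0.071). Of 20 tRNA synthetase genes 12 rose (60%) and 1 fell (median 0.24), led by *Iars* (0.71). The 1 that fell, *Farsb* (-0.23), was not called without crush replicate 1 (-0.21, adjusted p 0.13) and in other fits. Endoplasmic reticulum chaperones rose in 12 of 18 cases (66.7%) with 0 lower (median 0.30), among them *Hspa5* (BiP), from 319, 278 and 277 to 475, 505 and 485 CPM (0.74, SE 0.081).

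Cholesterol synthesis genes rose in 12 of 24 cases (50%, beside 12.9% of all genes) with 0 lower (median 0.22). *Hsd17b7* went from 92.4, 119 and 119 to 202, 189 and 183 CPM (log2 fold change 0.80, SE 0.087). Cytosolic heat shock proteins were called higher in 4 of 17 cases (23.5%), antioxidant targets of NRF2 in 3 of 16 (18.8%) and glycolysis and hypoxia genes in 4 of 26 (15.4%), with 0, 0 and 2 lower, beside 12.9% higher over all genes. *Srxn1*, a peroxiredoxin repair enzyme, rose from 506, 548 and 509 to 1289, 1341 and 1161 CPM (1.28, SE 0.12), and the glucose transporter *Slc2a3* from 125, 131 and 121 to 211, 209 and 191 CPM (0.70). Of 25 p53 targets and apoptosis regulators 8 rose (32%) and 2 fell: *Cdkn1a*, the cell cycle inhibitor p21, went from 95.2, 91.3 and 106 to 263, 286 and 222 CPM (log2 fold change 1.4, SE 0.17), and *Gadd45g* rose by 1.83, while *Bbc3*, *Hrk* and *Bax*, which promote cell death, were not called.

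**Figure D3:**
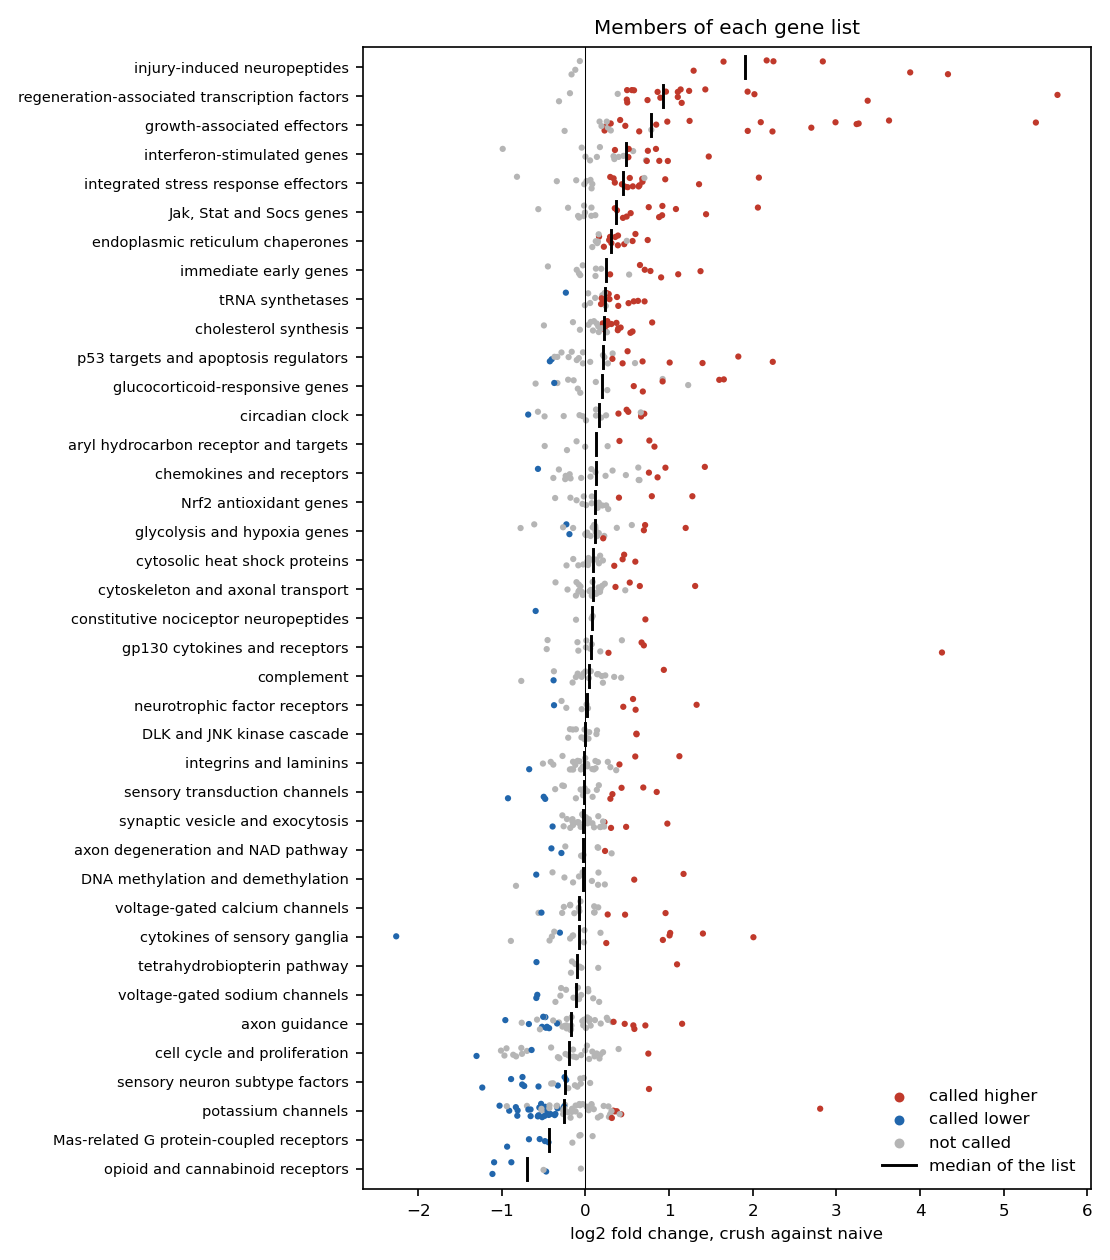
Each point is a tested gene of a list named at the left, placed by its log2 fold change after crush and coloured red (called higher), blue (called lower) or grey (not called). The black bar is the median of the list. Lists run from opioid and cannabinoid receptors (-0.69) to injury-induced neuropeptides (1.91).

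Lists of axon guidance, adhesion, the cytoskeleton and synaptic vesicles held shares of higher genes near the 12.9% of all genes. In axon guidance 6 of 44 were higher (13.6%) and 9 lower (20.5%, beside 8.73% of all genes), with a median of -0.17. *Plxna4*, a semaphorin receptor of sensory axons, went from 89.9, 110 and 109 to 207, 279 and 203 CPM (log2 fold change 1.16, SE 0.15), and *Sema7a* fell from 72.1, 86.7 and 84.2 to 47.5, 49.1 and 55.6 CPM (-0.68, SE 0.081). Of 28 integrins and laminins 3 rose (10.7%), among them *Itga3* (1.12, from 50.4, 54.3 and 52.0 to 108, 125 and 108 CPM) and *Itgb1* (0.60), and 1 fell. The cytoskeleton list gave 4 of 32 higher (12.5%), led by *Tubb6* (1.31), and 0 lower, with neurofilament genes *Nefl*, *Nefm* and *Nefh* not called. Of 29 synaptic vesicle genes 4 rose (13.8%) and 1 fell. *Syt4* rose by 0.98, from 374, 449 and 425 to 845, 848 and 768 CPM (overlapping genes at 22.6% of its counts).

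Further lists are given by their counts, beside 12.9% higher and 8.73% lower over all genes. Genes of the DLK and JNK kinase cascade, which relays axon damage, gave 2 of 15 higher, the phosphatases *Dusp16* and *Dusp10*, the latter lost without crush replicate 2 (adjusted p 0.0603), and the kinase gene *Map3k12* (DLK) was not called (adjusted p 0.0684). Axon degeneration and NAD genes gave 1 of 10 higher and 2 lower, all 3 lost without crush replicate 2 (adjusted p 0.119 for *Nmnat1*, which was also lost without crush replicate 3 at 0.0683, 0.101 for *Nmrk1* and 0.0617 for *Capn2*), and *Sarm1* and *Nmnat2* were not called. DNA methylation genes gave *Tet3*, a demethylase, from 29.1, 32.1 and 32.6 to 66.9, 82.1 and 62.5 CPM (log2 fold change 1.17, SE 0.098, adjusted p 1.07e-05), and *Tet1* lower (-0.59). *Gch1*, the first enzyme of tetrahydrobiopterin synthesis, rose from 7.64, 6.96 and 8.02 to 17.1, 15.9 and 15.4 CPM (1.10, SE 0.12). Proliferation genes gave 1 of 31 higher and 2 lower (median -0.20). Among 16 genes that respond to glucocorticoids 5 rose and 1 fell, *Fkbp5* by 0.69, and among 18 clock genes 6 rose and 1 fell, *Rora* by 0.67. *Zbtb16*, *Per2* and *Arntl* of these lists lost their calls without crush replicate 2 (adjusted p 0.082, 0.11 and 0.12), and *Zbtb16* and *Arntl* also without naive replicate 1 (0.0755 and 0.0796) or crush replicate 3 (0.0914 and 0.0587).

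*Ahr*, floxed but not recombined in these mice, rose from 18.9, 23.8 and 23.8 to 38.2, 38.7 and 36.2 CPM (1.70-fold), without overlap. It was not lower in the libraries labelled cKO, at 24.2, 28.1 and 22.7 CPM in naive and 39.7, 40.5 and 38.8 CPM in crush ganglia, so the level of the whole gene does not by itself bear out their label. Counts of the whole gene do not separate a deleted exon from the rest. Its target *Cyp1b1*, a cytochrome P450, rose from 76.6, 75.6 and 82.4 to 137, 136 and 144 CPM and *Tiparp* by 0.41 on the log2 scale, while *Cyp1a1*, *Ahrr* and *Nqo1* of the same list of 8 were not called. *Thy1*, whose promoter drives the Cre in the other mice, overlapped between the groups, at 707, 807 and 712 against 757, 804 and 791 CPM (adjusted p 0.503). In the libraries labelled cKO *Thy1* was at 1382, 1252 and 1416 CPM in naive and 1241, 1458 and 1358 CPM in crush ganglia. Each of these lay above every naive and crush control library.

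The 12 genes with the smallest p for a fall had naive means of 7.80 to 123 CPM. *Vwc2l*, a secreted factor with von Willebrand C domains, fell from 37.6, 45.6 and 42.0 to 20.4, 18.4 and 21.4 CPM (log2 fold change -1.05, SE 0.10, adjusted p 2.65e-05). *Prokr1*, a prokineticin receptor of nociceptors, fell from 39.1, 43.6 and 43.0 to 20.7, 23.6 and 23.4 CPM (-0.89, SE 0.086), and *Fndc5*, the precursor of irisin, from 60.8, 66.5 and 59.4 to 31.4, 35.8 and 36.9 CPM (-0.84, SE 0.086). *Adra2c*, an adrenergic receptor that restrains transmitter release, fell from 26.9, 34.5 and 26.3 to 13.5, 15.6 and 16.4 CPM (-0.95). The others of the 12 were *Myadml2* (-1.39, overlapping genes at 13.5% of its counts), *Kcnj11*, *Mrgpra3*, *Slc9a3r2* (-0.48), *Grhl3* (-0.91), *Paqr7* (-0.60), *Adgra3* (-0.47) and *Cd83* (-1.16). By size, among genes of at least 5 CPM in naive ganglia, the falls were led by *Vmn1r85* (-1.57), *Apol8* (-1.45), *Myadml2* (-1.39) and *Ankrd34c* (-1.38, from 31.1, 40.4 and 37.1 to 10.7, 12.7 and 18.3 CPM), so that no such gene fell as far as the leading genes rose.

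Markers of the other cells of the ganglion differed in how they moved. Their counts called stand beside 12.9% higher and 8.73% lower over all genes. The satellite glial sum lay at 2320 to 2420 CPM in naive and 2520 to 2750 CPM in crush libraries, and that of injured Schwann cells at 37.3 to 44.9 and 51.0 to 55.1 CPM, both without overlap. Of 13 macrophage markers 0 were called in either direction by edgeR, and their sum was 174 to 242 CPM in naive and 214 to 239 CPM in crush libraries. Neutrophil and monocyte markers (10 genes, 0 called) overlapped widely, at 134 to 792 and 120 to 480 CPM. Of 9 satellite glial genes, whose median was 0.02, 2 rose and 1 fell, with *Glul*, glutamine synthetase, higher by 0.58 and *Fabp7* lower by 0.35, and *Gfap*, a gene of reactive glia that was in the spinal cord list, rose from 1.98, 2.35 and 1.65 to 10.8, 7.52 and 6.05 CPM (log2 fold change 2.03, SE 0.22, adjusted p 7.21e-05), while *Mog*, *Mobp* and *Aqp4* of that list were not called. Of 13 Schwann cell markers 1 rose and 0 fell, and of 6 tested markers of injured Schwann cells 2 rose, *Shh* and *Gdnf*, the latter lost in other fits (adjusted p 0.13 without naive replicate 3). Among 5 mast cell markers 3 fell by 0.62 to 0.74 (81.3 to 85.5 against 68.5 to 77.6 CPM summed), and each lost its call without crush replicate 2 (adjusted p 0.11 to 0.13) and without naive replicate 1 (0.0732 to 0.0924). The part of cell numbers in the changes above was not tested.

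**Figure D4:**
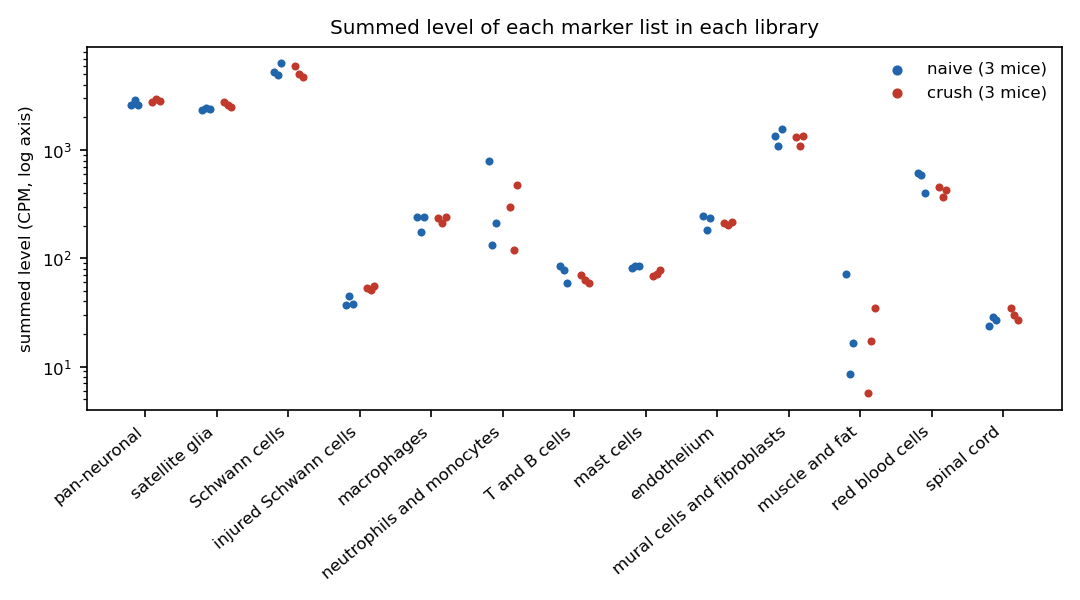
Summed level of the markers of each cell type in each library (CPM, log axis), naive in blue and crush in red. Neuronal and Schwann sums overlap between the groups, satellite glial and injured Schwann sums are higher in every crush library than in any naive one, and the widest spread within a group is that of the neutrophil and monocyte list (134 to 792 CPM in naive ganglia) and the muscle and fat list.

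Of 21 chemokines and receptors 4 rose (19.0%, beside 12.9% of all genes) and 1 fell, and all 5 lost their calls without at least 1 library, for example *Ccl7* (0.76; 0.64, adjusted p 0.11, without naive replicate 3 and 0.68, adjusted p 0.0917, without crush replicate 3). *Ccl2*, the monocyte attractant, was not called. Of 18 cytokines of sensory ganglia, *Csf1* and *Ntf3* among them, 6 rose (33.3%) and 2 fell. Of 19 complement genes *C4b* rose by 0.94, from 16.5, 15.3 and 23.5 to 37.9, 35.6 and 32.6 CPM, and *Cd55* fell by 0.38, a call lost without crush replicate 2 (-0.36, adjusted p 0.082) or naive replicate 1 (-0.35, adjusted p 0.0691). Of 22 interferon-stimulated genes 9 rose (40.9%, beside 12.9% of all genes) and 0 fell, with a median of 0.48. *Oasl2* went from 57.4, 68.8 and 69.4 to 138, 106 and 107 CPM (log2 fold change 0.84, SE 0.11, adjusted p 0.0002) and *Ifit1*, an antiviral effector, from 43.5, 34.7 and 38.8 to 161, 85.6 and 78.8 CPM (1.47, SE 0.26), crush replicate 1 being the highest in both.

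Sham surgery was read as the difference between the operated and the other side of the same mouse, in other mice. A change that an operation causes on both sides cancels in this contrast and cannot be read from it. It called 0 of 22160 genes (0.0%) in edgeR, with 760 at an unadjusted p under 0.05 (3.43%), while DESeq2 called 42 higher and 2 lower and edgeR without a filter on low counts 150 and 33. The direction nevertheless often followed that of the crush: of the 480 genes at least 2-fold higher after crush, 430 could be read in the sham ganglia and 389 of them (90.5%) were higher on the operated side, with a median log2 difference of 0.44 against 1.45 after crush. Of the 149 genes at least 2-fold lower, 111 of 140 (79.3%) were lower on the operated side, with a median of -0.15 against -1.23. Over all genes read in both, 10332 of 20342 were higher on the operated side. *Atf3* was at 125 and 82.4 CPM on the operated side and 11.9 and 11.5 CPM on the other side of the 2 sham mice, *Sox11* at 16.2 and 13.9 against 6.97 and 6.31 CPM, and *Jun* at 159 and 149 against 108 and 103 CPM. In all 3 both operated sides lay above both other sides. Sham and crush libraries were scaled in separate fits and their mice differed in sex and stated tamoxifen, so their levels cannot be ranked against each other.

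The difference between the crush effect and the sham side effect, tested in 1 model over 20 libraries, passed for 544 of 22254 genes (2.44%), 401 higher (1.8%) and 143 lower (0.643%). Of the 2744 genes that rose after crush 396 were among the former, and of the 1857 that fell 137 were among the latter. That model did not hold the pairing of the sides of a sham mouse. With the mouse as a block, added after seeing the data, 420 genes were higher and 173 lower, 358 and 126 of them among the 544. The counts rest on 2 sham mice: without the first they were 44 and 34 and without the second 35 and 7, of which 41 and 10, and 32 and 5, were among the 544. Either of those fits leaves 1 control sample on each sham side, so the other groups supply the spread and the counts are weak. Leaving out a crush or naive library gave 146 to 391 higher and 45 to 190 lower. *Adcyap1* exceeded its sham side effect by 1.63 (adjusted p 0.00123), *Sox11* by 2.19 (0.00306), *Jun* by 1.38 (0.00371) and *Atf3* by 2.49 (0.0316). *Ntf3* lay 2.60 below its sham side effect (-2.60, adjusted p 0.00306), *Vwc2l* at -1.05 (0.00306) and *Oprl1* at -1.04 (0.0131). *Vwc2l* stood at 18.4 and 15.5 CPM on the operated side and 17 and 17.1 CPM on the other side of the sham mice. It was at 37.6, 45.6 and 42.0 CPM in naive and 20.4, 18.4 and 21.4 CPM in crush ganglia. Because the 2 sets of libraries were scaled separately, whether its level at rest differed in the sham mice cannot be told. For *Fgf3*, *Sprr1a*, *Gpr151* and *Tmem88b* the difference was not called, with sham side effects of 4.26, 2.65, 2.53 and 3.37 beside crush effects of 6.23, 5.39, 4.92 and 5.29. The sham mice differed from the crush mice in sex and stated tamoxifen, and their part in these differences cannot be told apart.

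Of the 22 regeneration factors 12 exceeded their sham side effect, beside 1.8% of all genes, and 3 did so when either sham mouse was left out. The median sham side effect of these factors was 0.18, against 0.93 after crush. Of the 22 interferon-stimulated genes 0 exceeded it and 1 lay below it, or 0 with the sham mouse as a block and 5 without the first sham mouse. Their sham side effect had a median of 1.28 against 0.48 after crush, and all 22 were higher on the operated side, 19 with an unadjusted p under 0.05 but 0 called after adjustment. *Ifit1* was at 37.4 and 126 CPM on the operated side and 17.7 and 16.3 CPM on the other, and *Usp18*, which limits interferon signalling and was chosen after its values were seen, at 5.33 and 21.8 against 2.61 and 2.60 CPM, the second sham mouse being the higher in both. After crush *Usp18* rose by 0.75, from 3.91, 4.11 and 4.75 to 9.41, 6.21 and 5.86 CPM.

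**Figure D5:**
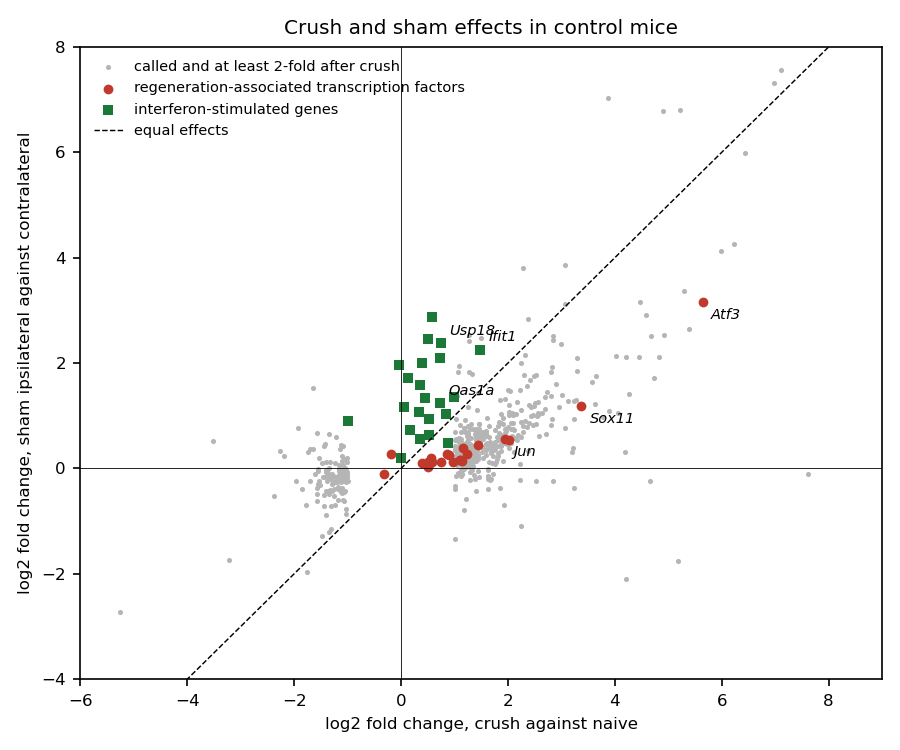
Log2 fold change after crush (horizontal axis) against the log2 fold change between the operated and the other side after sham surgery (vertical axis) in control mice, for genes called and at least 2-fold changed after crush (grey), regeneration factors (red circles) and interferon-stimulated genes (green squares). Regeneration factors lie below the dashed line of equal effects when they rise, with *Atf3* at 5.64 and 3.15, and 21 of 22 interferon genes lie above it.

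The same crush in mice labelled cKO, whose libraries are labelled as separate from those of the controls, gave 3962 called genes (18.6%), 2285 higher (10.7%) and 1677 lower (7.89%). By their transcripts 2 of the 3 crush cKO libraries were male and all 3 naive cKO libraries female, so sex and crush are partly mixed there, and crush cKO replicate 2 is the library that went against its label. Without it the cKO counts were 1606 higher and 1054 lower. These counts come from the fit that also holds the control libraries, so the cKO libraries were fitted alone as well, a choice made after seeing the data, and the control libraries alone beside them. Of 426 genes at least 2-fold higher in the 6 cKO libraries, 414 could be read in the controls, 412 of them were higher there and 372 were called, with a median log2 fold change of 1.45. Of 152 genes at least 2-fold lower, 148 could be read, 146 were lower and 50 were called, with a median of -0.87. Over all genes the control libraries alone called 2229 higher and 1491 lower. In the joint fit 10028 of 21261 genes were higher and 11233 lower in controls, called or not. With crush cKO replicate 2 left out, 334 of 334 and 73 of 73 genes had the same direction, with medians of 1.69 and -0.99. For the 475 genes at least 2-fold higher in cKO mice in the joint fit, the median by library, on the scale of log2(CPM + 1), lay 1.04, 1.08 and 0.92 above the naive mean in crush replicates 1, 2 and 3, and between -0.02 and 0.01 in the naive libraries. The difference of the crush effect between the labelled genotypes was called for 0 of 21261 genes in edgeR (0.0%) and 0 in DESeq2, with 627 at an unadjusted p under 0.05 (2.95%). Leaving out crush cKO replicate 1 gave 8 genes, all lower, and leaving out crush cKO replicate 2 or crush control replicate 3 gave 0. *Atf3* rose by 5.60 in cKO mice and *Sox11* by 3.17, beside 5.64 and 3.37 in controls.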

How the data were processed

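RNA of whole ganglia was sequenced from TruSeq Stranded mRNA libraries, per the labels' protocols. The submitters' processing notes name Trim Galore, HISAT2, featureCounts and mm10, without versions or settings. The authors deposited whole-number counts per Ensembl gene, 55401 in all, which were used; the FPKM tables were not. The antisense pair *Tsix* and *Xist* had equal counts (100%) in all 6 libraries, so reads shared by overlapping genes were counted for both. Symbols (55141 genes) and coordinates are those of GENCODE M21 on GRCm38.

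The 12 crush and naive libraries of both genotypes were fitted together with edgeR 4.0.16 (R 4.3.3): filterByExpr (minimum count 10, minimum total 15), TMM factors, 1 mean per group, quasi-likelihood test, two-sided, Benjamini-Hochberg adjustment over 21261 genes, called under 0.05. The SE is the log2 fold change divided by the root of F. CPM use TMM-adjusted totals. Nothing says more of the mice than that each is 1 sample, so p-values of the crush comparison measure the spread between those samples; each sham mouse gave 2 samples. The 8 sham libraries were fitted alone (22160 genes) and all 20 libraries together (22254 genes).

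Genes named are the 12 of smallest p in each direction (mean at least 1 CPM, groups apart, overlapping genes under 20% of counts, no clone names, no sex chromosomes), the 6 of largest fold with at least 5 CPM in the higher group, up to 6 called members of a list per direction, uncalled members, *Ahr* and *Thy1*. Others are said to be chosen after their values were seen. The members, the lists (39 of pathways and families, 13 of markers, 903 symbols, 872 tested) and the rule were chosen with earlier results of these data known. Alternatives were DESeq2 1.42.0, RLE factors, other filters, the 6 libraries alone, a replicate block, genotype and sex covariates, and each library left out. The crush, sham and difference fits were also run on simulated counts, and no result here rests on that run. The files of cultured neurons were not used here.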

Additional observations from a re-analysis of the deposited data

How the results depend on the processing

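The counts of genes higher after crush stayed within 1.5 times of 2744 in every alternative, from 1834 (labelled *Ahr* genotype as a covariate, the 6 libraries alone) to 2587, and from 1930 to 2507 with a library left out. Those lower (1857) came to 1145 to 1955 over these settings, 1491 with the 6 libraries alone and 1145 with the genotype covariate added to those. They came to 1181 without crush replicate 1, 1186 without crush replicate 2, and 1181 to 1642 over all fits without a library. Members of the lists were 219 higher (178 to 203 with a library left out) and 83 lower (53 to 86, the lowest without crush replicate 1). The genotype difference gave 0 higher in every fit and 0 to 8 lower with a library left out. The sham contrast gave 42 higher and 2 lower in DESeq2 and 150 and 33 without a filter, and 0 with a library left out. The difference of crush and sham effects gave 632 higher and 243 lower in DESeq2, 35 to 391 and 7 to 190 with a control library or a sham mouse (both its sides) left out, and 420 and 173 with the mouse as replicate block. The cause of these shifts was not tested.

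Same-numbered crush and naive libraries deviated together with r of 0.145, 0.521 and -0.089, and not every library correlated best with its own number. By their labels they share the number and the *Ahr* genotype. Whether they share more, such as a batch, was not tested. With the replicate block the 6 libraries gave 2550 higher and 1881 lower, the genotype difference 0, and the sham contrast with the mouse as block 0 (paired sides correlated at 0.29). Over the named genes and all settings, 3093 values kept their call and 269 lost it, none with a turned sign. List counts moved by more than 1.5 times in 186 cases and in 1270 did not. Genes under the filter were not tested in the reported fit.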

Other observations

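The genes described here were chosen after their values were seen. Of the 75 genes at least 8-fold higher after crush, 17 reached 5 CPM and 11 had 0 counts in all 3 naive libraries. *Krt6a*, a keratin of stressed epidermis, had 0, 1 and 0 counts in naive and 32, 87 and 44 in crush libraries, and *Krt16*, its partner, had 0 counts in every naive library and 8, 30 and 12 after crush. *Kprp* and the cornified envelope genes *Lce1a1*, *Lce1g* and *Sprr2a2* also rose, *Kprp* with 16, 31 and 26 counts against 0 and *Lce1g* with 60, 49 and 53 against 2, 2 and 3. Counts of overlapping genes came to 28.0% of those of *Krt6a* and 26.7% of those of *Sprr2a2*. *Krt17*, another epidermal keratin, had 5, 0 and 2 counts in naive and 2, 0 and 3 in crush libraries and was not tested. In *Krt6a*, *Krt16* and *Kprp* crush replicate 2 was the highest. In the sham mice *Krt6a* was at 0.616 and 0.178 CPM on the operated side and *Krt16* at 0.581 and 0.379 CPM, both at 0 on the other side, neither called. Their source was not tested.

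*Adm2*, a peptide of the adrenomedullin family, had 0 counts in every naive library and 59, 77 and 61 after crush. *Areg*, a ligand of the EGF receptor, rose by 4.73 on the log2 scale and *Chrna5*, a nicotinic receptor subunit, by 3.57.

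At the other end, 9 of the 12 genes at least 4-fold lower were immunoglobulin variable segments, of 86 tested, with 0 higher. Called segments made up 10.5% of the 86, beside 8.73% lower over all genes. *Ighv4-1* had 36, 12 and 20 counts in naive and 1, 0 and 0 in crush libraries. All 86 summed to 166, 48.1 and 53.8 CPM in naive and 35.5, 24.3 and 74.5 CPM in crush ganglia, so the sums overlap. Single called segments can overlap too, as *Ighv1-50* with 23, 2 and 18 against 1, 2 and 1 counts. The other named gene beside *Ntf3*, *Rec8*, a meiotic cohesin, had 9, 12 and 20 counts against 3, 2 and 3.

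By gene type, 14.5% of 15815 protein-coding genes rose and 9.9% fell, whereas of 847 long intergenic non-coding RNAs 6.49% rose and 11.7% fell. Whether the shares differ was not tested.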
